A study of Drosophila melanogaster with 8 samples.

Results

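The vacuolar proton pump (V-ATPase) genes were examined in RNA from synaptosomes and from the crude head homogenate (input) of adult Drosophila melanogaster. Genes were taken as members when their FlyBase symbol begins with Vha. Of 33 such symbols, 24 had a row among the 10669 genes of the count table, namely 11 of the catalytic sector V1, 11 of the membrane sector V0 and 2 of the accessory subunit Ac45. The other 9 were not analysed here. Of the 24 members, 20 passed the filter on low counts and were tested. The rule uses no measured value.

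Synaptosomes are nerve terminals pinched off together with a piece of postsynaptic membrane, here collected from a Percoll gradient. They were compared with the strained crude head homogenate, taken before the spins that lead up to the gradient. Per the study's methods, both came from the heads of 3-day-old w1118 flies, a white-eyed laboratory strain, and the labels give the genotype of all samples as wt. The labels describe snap-frozen flies and the study's methods describe fresh heads, and which holds for each library was not given in the sources used here. There were 4 libraries per group, numbered 1, 2 and 3 and named old, which is the only mark the count table gives the last of each group, and whether they came from separate fly collections is not stated. In the per-library values below, the order is always 1, 2, 3 and old.

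The V-ATPase is a rotary motor that spends ATP to move protons across a membrane. In V1, the subunits A and B split ATP, D and F turn as the central shaft, E and G form the peripheral stalks, and C and H join them to the membrane. In V0, the proteolipids c and c″ form the rotating ring, a holds the proton path, d caps the ring, and e is a small membrane protein. At nerve terminals the pump acidifies synaptic vesicles, and the proton gradient powers their filling with transmitter. Several subunits are encoded by more than 1 gene, of which some are used in most tissues and others in few.

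Library totals ran between 1029666 and 9397652 counts in synaptosomes and between 7940909 and 16865581 counts in input, so a floor of 3 counts was worth 0.352 to 2.63 CPM in synaptosomes and 0.217 to 0.337 CPM in input. CPM is a count scaled to a common library size of 1e6 after TMM adjustment of the totals. A read marks the 3′ end of a transcript, so counts were not divided by transcript length. Markers of other cells moved with the groups. Of 11 photoreceptor markers, 7 were lower in synaptosomes, among them the opsin gene ninaE (log2 fold change −4.22 ± 0.41, SE). Of 7 tested cuticle markers, 3 were higher, and the summed level of the list was 3606 to 23090 CPM in synaptosomes and 2818 to 3619 CPM in input. Nearly all of it was Cpr72Ec, and the other 8 cuticle genes summed to 228 to 494 CPM in synaptosomes and 89.5 to 120.5 CPM in input. None of 10 neuron markers was called by edgeR, and their median log2 fold change was −0.67. Most of their synaptosome counts came from nrv3, a sodium pump subunit gene, and without it, a choice made after the data were seen, the other 9 summed to 249.8, 365, 181 and 89.8 CPM in synaptosomes, against 814, 645, 669 and 201 CPM in input. fne, a neuronal RNA-binding protein gene, had no synaptosome count. It had only 1.51 to 11.8 CPM in input, near the synaptosome floor. Of the 10 neuron markers, elav, nrv3 and para had positive log2 fold changes (1.4 ± 1.09, 1.34 ± 0.61 and 0.74 ± 1.74), and the others negative ones. Fat body markers summed to 13790 CPM in synaptosome library old and 772 to 1223 CPM in the other synaptosome libraries, and to 15550 CPM in input library old and 3257 to 3437 CPM in the other input libraries. Most of it in the libraries named old was the yolk protein genes Yp1, Yp2 and Yp3. They had 5534, 4726 and 1349 CPM in synaptosome library old and 6763, 3621 and 3902 CPM in input library old. apolpp had 2045 CPM in synaptosome library old and 194.5 to 497.8 CPM in the others. In input it had 1193 CPM in library old and 798.5 to 963.3 CPM in the others. Of 8 glial markers, Gat was higher, of 9 muscle markers 2 were lower, and none of the 5 tested fat body or 3 tested blood cell markers was called. The part of these cells in the pump values below was not tested. One group is a fraction of the homogenate, so RNA that stayed in other parts of the cell would also lower a marker. In such bulk samples, this, fewer cells of a type and less RNA per cell cannot be told apart.

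First, the whole pump was compared. A single member, VhaM9.7-b, passed the test and was higher in synaptosomes, and none was lower. The call was an adjusted p under 0.05 from edgeR's quasi-likelihood test over 8159 genes, of which 0.944% were called higher and 4.13% lower. At an unadjusted p under 0.05, 3 members were higher, against 4.44% of all tested genes, and 3 were lower, against 9.85%. DESeq2 called 3 members higher (VhaM9.7-b, VhaAC45 and Vha14-1) and 1 lower (VhaAC45RP). Its background was also larger, with 226 genes called higher and 425 lower of the same 8159.

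The remaining members fell on both sides of 0. Of the 20 members, 10 had a positive and 10 a negative log2 fold change, with a median of 0.02, beside −0.35 for all tested genes. The range was −1.85 (VhaSFD) to 2.01 (VhaM9.7-b). Every synaptosome library was above every input library for 3 members (VhaM9.7-b, VhaAC45 and Vha14-1), against 2.99% of tested genes. Every synaptosome library was below every input library for 4 members (Vha55, VhaSFD, Vha100-1 and VhaAC45RP), against 14.5% of tested genes. The spread among libraries was narrower at the median, though members were not compared with genes of like level. The median SD of log2 CPM among synaptosome libraries was 0.57 for members and 2.05 for all tested genes, and among input libraries it was 0.28 and 0.54. Single members spread far more among synaptosome libraries, up to 4.30 for Vha68-2 and 3.61 for VhaM9.7-c. Members were expressed at a higher level than most, the median being 194.5 CPM in synaptosomes and 255 CPM in input, beside 20.02 CPM in synaptosomes and 25.8 CPM in input for all tested genes.

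**Figure D1:**
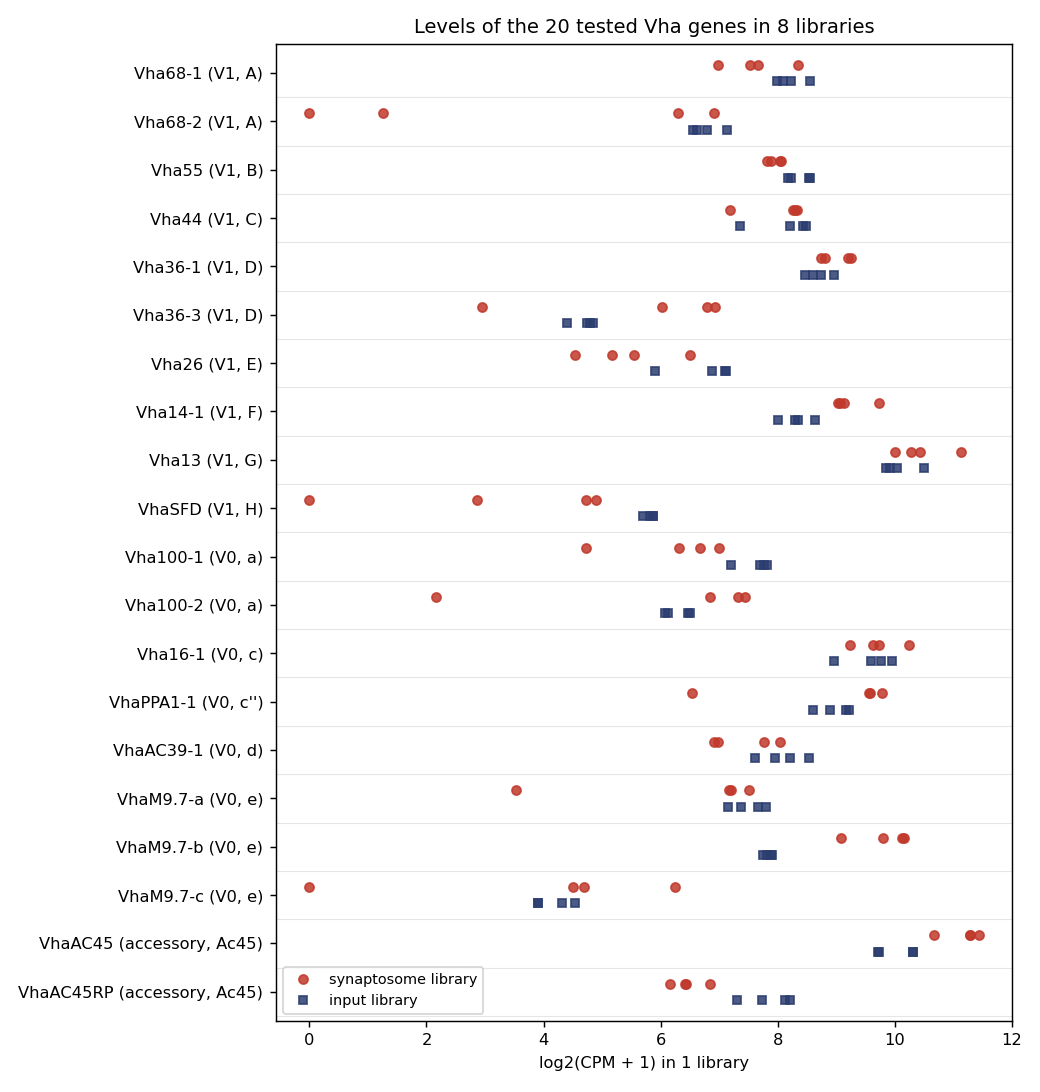
Level of each of the 20 tested Vha genes in single libraries, as log2(CPM + 1), with synaptosome libraries as red circles above input libraries as blue squares and the sector and subunit beside each symbol. VhaM9.7-b, VhaAC45 and Vha14-1 have all synaptosome points to the right of the input points, and Vha68-2, VhaSFD and VhaM9.7-c each have a synaptosome library at 0.

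**Figure D2:**
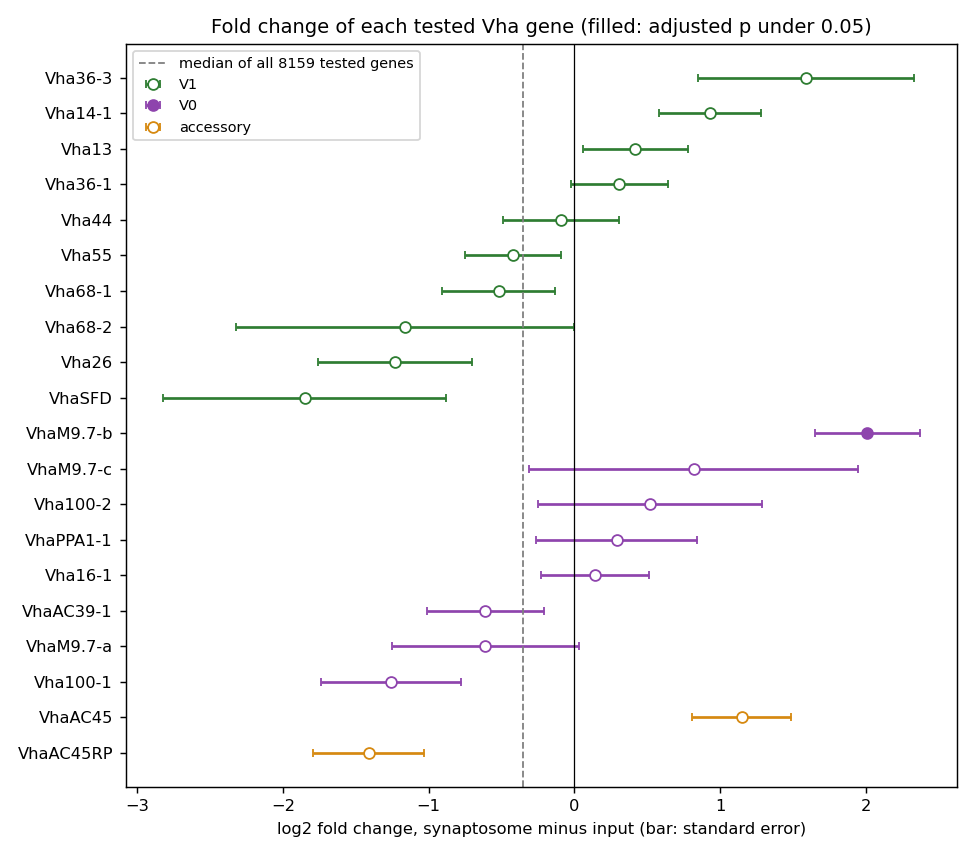
Log2 fold change of each tested Vha gene, synaptosome minus input, with its standard error, ordered within V1, V0 and accessory genes. The filled point is VhaM9.7-b, the member past the test, and the dashed line is the median of all tested genes at −0.35.

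Next, V0 was set against V1. The 8 tested V0 members had a median log2 fold change of 0.22 (range −1.26 to 2.01) and the 10 tested V1 members a median of −0.26 (range −1.85 to 1.59). The ranges overlapped almost wholly. Summed over members, V0 took 0.247, 0.373, 0.297 and 0.250% of the counts of the synaptosome libraries, against 0.286, 0.206, 0.276 and 0.167% in input. V1 took 0.420, 0.366, 0.299 and 0.291% in synaptosomes, against 0.358, 0.272, 0.345 and 0.269% in input. Thus the libraries of the groups overlapped for both sectors.

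The log2 ratio of V0 to V1 counts was −0.76, 0.03, −0.01 and −0.22 in synaptosome libraries, against −0.32, −0.40, −0.32 and −0.68 in input libraries. It averaged −0.24 ± 0.36 in synaptosomes and −0.43 ± 0.17 in input (SD, n = 4 each). Synaptosome library 1 lay below all others and the other 3 synaptosome libraries lay above all input libraries. Without VhaM9.7-b, the ratio averaged −0.79 ± 0.50 in synaptosomes and −0.59 ± 0.19 in input, and without synaptosome library 1 as well, the synaptosome mean was −0.55. The order of the means thus turned on this gene and on 1 library, left out after the data were seen. The share of all members together was 0.877 ± 0.135% in synaptosomes and 0.676 ± 0.127% in input, with overlapping libraries.

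In V0, subunit e held the gene that changed. VhaM9.7-b (FBgn0028663, 3L 21539862 to 21541215, dm6) had 1136, 1115, 891 and 541 CPM in synaptosome libraries, against 224, 214, 237 and 237 CPM in input libraries. The lowest synaptosome library, old, was more than any input library, and the input libraries lay within a narrow band. It averaged 920.4 ± 276 CPM in synaptosomes and 228 ± 10.9 CPM in input (SD, n = 4 each), a log2 fold change of 2.01 ± 0.36 (SE) and 4.04-fold (adjusted p = 0.0277, edgeR). Among members it ranked 3 by mean level in synaptosomes and 12 in input. In synaptosomes, the summed cuticle, neuron and glial markers were also lowest in library old, at 3606, 425.7 and 1827 CPM. The lowest of the other 3 libraries had 15300, 849 and 3398 CPM. The photoreceptor, fat body and blood cell sums were instead highest in library old, at 107700, 13790 and 97.75 CPM, and the muscle sum was neither. Most of this photoreceptor sum was Arr2 and Arr1, with 85360 and 19820 CPM. Of the other photoreceptor genes, Rh4, Rh5, Rh6, trp and trpl were highest in library old, and ninaE, Rh3, norpA and inaD were not. Much of the glial sum was Gs2, with 853.5 CPM in library old and at least 2271 CPM in the others, while Eaat1 was highest in old, at 399 CPM. Any tie to VhaM9.7-b was not tested.

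The size of this difference did not rest on a single library, whereas the call needed nearly all of them. Leaving out each of the 8 libraries in turn gave log2 fold changes between 1.89 and 2.19. The call held in only 1 of these 8 fits, the one without synaptosome library old, and was lost without synaptosome library 1, 2 or 3 or any of the input libraries (adjusted p up to 0.124). In those fits the calls over all genes also varied, between 0 and 182 higher and between 1 and 984 lower. Without both libraries named old, the log2 fold change was 2.22 and VhaM9.7-b, VhaAC45 and Vha36-3 were called higher, of 139 higher calls among 8066 genes. The plot of VhaM9.7-b under each setting shows that the estimates lie close together.

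**Figure D3:**
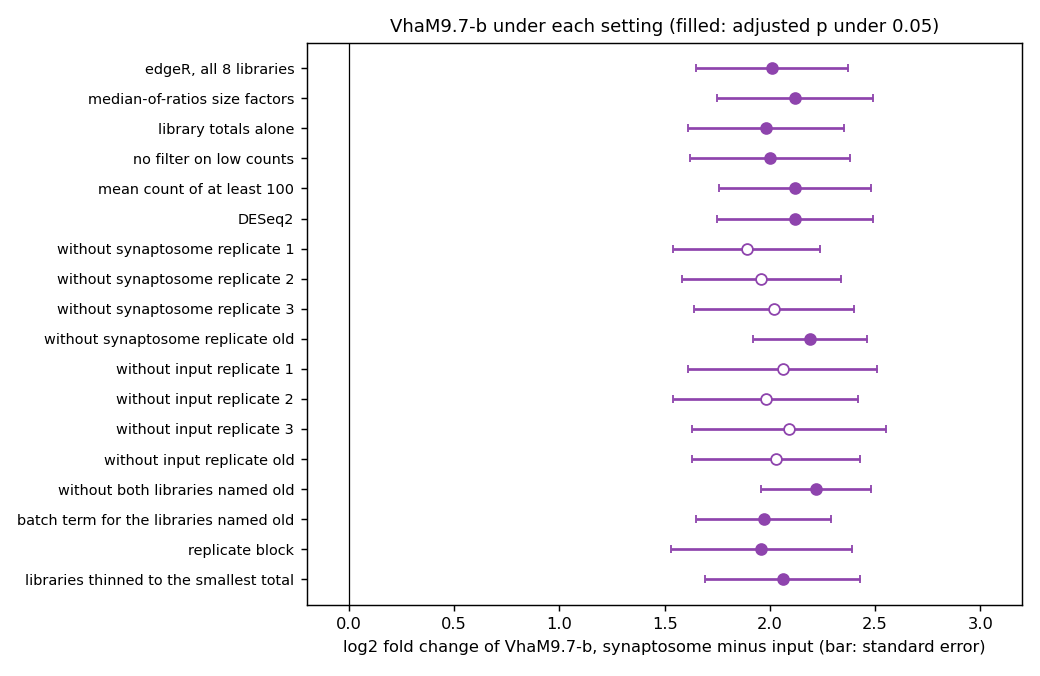
Log2 fold change of VhaM9.7-b, synaptosome minus input, with its standard error in each of 18 fits, filled where the adjusted p was under 0.05. All estimates lie between 1.89 and 2.22, and 7 of the 8 fits that leave out 1 library are open.

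Neither of the other e genes passed the test. VhaM9.7-a (3L 4262705 to 4263464) had 10.5, 142, 180.0 and 146 CPM in synaptosomes, against 201, 142, 165 and 223 CPM in input, and its log2 fold change was −0.61 ± 0.64 (adjusted p = 0.798). Synaptosome library 1 was low and the other libraries of both groups were mixed. VhaM9.7-c (3L 4186018 to 4186865) was the least abundant, with 75.1, 0, 24.7 and 21.7 CPM in synaptosomes against 14.1, 13.9, 22.2 and 19.0 CPM in input. It changed by 0.82 ± 1.13 (adjusted p = 0.862), its sign turned without synaptosome library 1 (−0.16), and it lies within the bounds of Teh2 on the same strand.

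The makeup of subunit e was then set side by side. VhaM9.7-b held 92.99, 88.7, 81.3 and 76.3% of the counts of the e genes in synaptosomes, against 51.1, 57.9, 55.8 and 49.5% in input. VhaM9.7-a held 12.3 ± 8.54% in synaptosomes and 42.4 ± 4.34% in input. The difference of 31.3 percentage points for VhaM9.7-b gave p = 0.0286 in a two-sided exact permutation test, the smallest value that 4 against 4 libraries allow. Since 5 subunits with paralogs were compared in this way, a test added after the values were seen, the adjusted p was 0.0714 and did not pass.

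**Figure D4:**
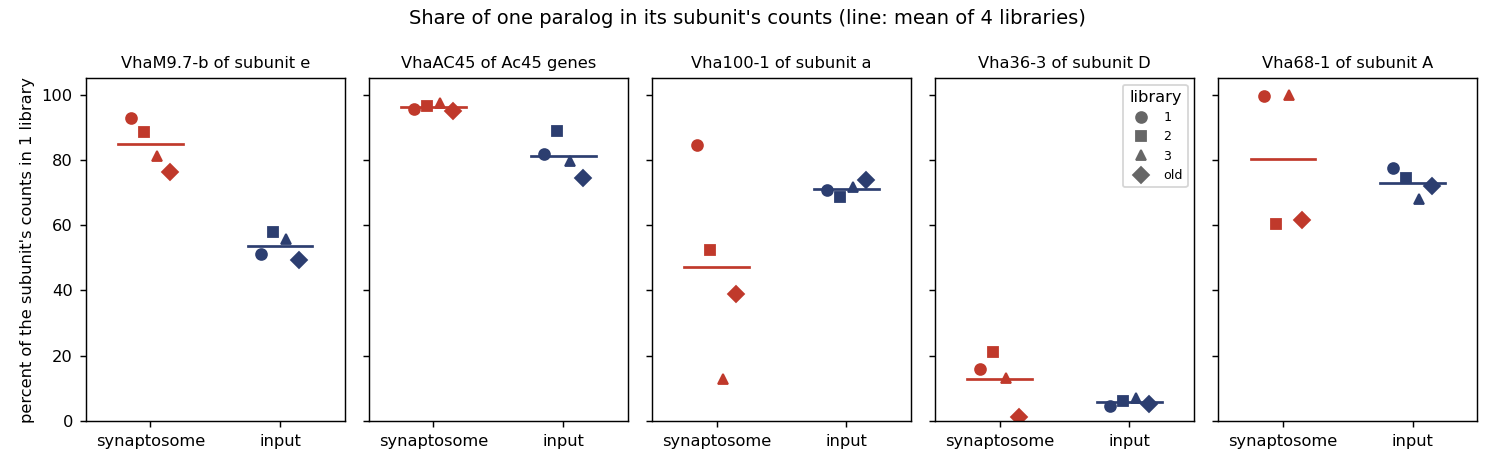
Percent of a subunit's counts that fell on one paralog in each library, for subunits e, Ac45, a, D and A, with synaptosome libraries in red on the left, input libraries in blue on the right, symbols for library names and a line at the mean of 4. Groups are apart for VhaM9.7-b and VhaAC45 and overlap for Vha100-1, Vha36-3 and Vha68-1.

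Of the a genes, Vha100-1 is the neuronal paralog, known for its place on synaptic vesicles and its role in transmitter release. Vha100-1 (3R 29131193 to 29137980) had 78.4, 126, 25.4 and 101 CPM in synaptosomes, against 217, 146, 225 and 207 CPM in input. All synaptosome libraries were lower than all input libraries. However, this gave no call, at a log2 fold change of −1.26 ± 0.48 (adjusted p = 0.216). Vha100-2 (3R 18390323 to 18399169), the broadly used paralog, had 3.50, 114, 173 and 159 CPM in synaptosomes, against 89.9, 66.6, 87.2 and 69.1 CPM in input. Library 1 of the synaptosomes was far below the input libraries and the other 3 were above them, and the log2 fold change was 0.52 ± 0.77 (adjusted p = 0.879). Vha100-5 had counts in 3 libraries only, with 46 in synaptosome library 1 and 22 and 59 in input libraries 3 and old, and was not tested.

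Vha100-1 therefore made up 84.6, 52.6, 12.8 and 39.0% of the a counts in synaptosomes, against 70.8, 68.7, 71.7 and 73.9% in input. The input libraries were alike and the synaptosome libraries spread over most of the scale (exact permutation p = 0.143, adjusted p = 0.179 over 5 subunits). The a counts were few in the shallow synaptosome libraries, 274 in library 2 and 281 in library 3. Vha100-1 and Vha100-2 overlap Alg13 and Vti1b on the opposite strand, and whether counting used strand was not given in the sources used here.

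No proteolipid gene of the ring passed the test. Vha16-1 (2R 6625242 to 6633090), which encodes c, had 1209, 845, 601 and 787 CPM in synaptosomes, against 869, 769, 987 and 495 CPM in input, a log2 fold change of 0.14 ± 0.37 (adjusted p = 0.935) with mixed libraries. VhaPPA1-1 (3R 14902330 to 14904061), which encodes c″, had 91.9, 759, 753 and 876 CPM in synaptosomes, against 571, 475, 389 and 595 CPM in input. Synaptosome library 1 was low and the other 3 were above every input library, which left 0.29 ± 0.55 (adjusted p = 0.909). Vha16-5 had 12 counts in input library 3 and none elsewhere, which in the synaptosome libraries allows up to the floor of 3 counts each. VhaPPA1-2 had no count in any library. VhaAC39-1 (X 3880748 to 3882967), the cap subunit d, had 125, 262, 217 and 119.6 CPM in synaptosomes, against 369, 246, 294 and 193 CPM in input, and changed by −0.61 ± 0.40 (adjusted p = 0.596).

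In V1, no gene of the ATP-splitting core passed the test. Vha55 (3R 12623762 to 12627829), which encodes B, had 225, 235, 263 and 266 CPM in synaptosomes, against 368, 297, 373 and 286 CPM in input. The groups did not overlap, yet they lay close, and the log2 fold change of −0.42 ± 0.33 (adjusted p = 0.675) was near the median of all genes. Vha68-1 (2L 13000770 to 13004107), the more abundant gene for A, had 324, 182, 202 and 125 CPM in synaptosomes, against 376, 269.8, 298 and 254 CPM in input (log2 fold change −0.52 ± 0.39, adjusted p = 0.649). The libraries overlapped through synaptosome library 1. Its paralog Vha68-2 had 0 to 119 CPM in synaptosomes and 93.1 to 139 CPM in input, with 6 counts in synaptosome library 1 and none in library 3. Among the A counts, the share of Vha68-1 was 80.4 ± 22.4% in synaptosomes and 73.0 ± 3.92% in input, with overlap (two-sided exact permutation p = 0.486, adjusted p = 0.486).

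The 3 tested shaft genes had positive log2 fold changes, none of which passed the test. Vha14-1 (2R 15679426 to 15680084), which encodes F, had 842, 557, 519.5 and 535 CPM in synaptosomes, against 323, 254, 312 and 394 CPM in input. All synaptosome libraries were higher, and the log2 fold change was 0.93 ± 0.35 (adjusted p = 0.196, and 0.0336 with DESeq2). Vha36-1 (2R 15541435 to 15542498), the main gene for D, had 584, 449, 426 and 609 CPM in synaptosomes, against 427, 388, 354 and 499 CPM in input, with overlap and 0.31 ± 0.33 (adjusted p = 0.804). Its scarcer paralog Vha36-3 (X 2579091 to 2580560) had 6.68 to 120 CPM in synaptosomes and at most 27.6 CPM in input (1.59 ± 0.74, adjusted p = 0.360). Synaptosome library old alone was below the input libraries. Without it, Vha36-3 changed by 1.97 and was called. Vha36-3 held 15.8, 21.1, 13.1 and 1.09% of the D counts in synaptosomes, against 4.48, 6.19, 6.98 and 5.23% in input, with overlap (exact permutation p = 0.143, adjusted p = 0.179). Vha14-2, the other gene for F, had no count in any library.

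The genes of the stalks and of the membrane joint were mixed. Vha13 (3R 19643018 to 19644386), which encodes G, was the most abundant member in input. It had 2231, 1234, 1023 and 1377 CPM in synaptosomes, against 1050, 920.4, 964 and 1439 CPM in input (log2 fold change 0.42 ± 0.36, adjusted p = 0.713). Vha26 (3R 5591763 to 5595356), which encodes E, the partner of G in each stalk, had 22.2, 89.4, 45.9 and 35.2 CPM in synaptosomes, against 117, 136, 138 and 58.8 CPM in input (−1.23 ± 0.53, adjusted p = 0.301). The stalk partners thus had values on either side of 0, and neither passed the test.

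Vha44 (2R 16324813 to 16336637), which encodes C, had 306, 314, 319.7 and 145 CPM in synaptosomes, against 343, 295, 357 and 162 CPM in input, with library old low in both groups. Its log2 fold change of −0.09 ± 0.40 (adjusted p = 0.964) took either sign with the scaling, 0.01 with median-of-ratios factors. VhaSFD (2L 16722883 to 16727826), which encodes the regulatory subunit H, had 6.30, 0, 25.4 and 28.8 CPM in synaptosomes, against 57.1, 55.6, 51.1 and 57.3 CPM in input. Every synaptosome library was lower and the input libraries were nearly equal. With a spread this wide among synaptosomes, −1.85 ± 0.97 gave no call (adjusted p = 0.450).

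Both Ac45 genes had groups that did not overlap, in opposite directions. VhaAC45 (2R 9207561 to 9209774), the accessory subunit, known in mammals to guide the pump in the secretory pathway, was the most abundant member in synaptosomes. It had 2485, 2474, 2760 and 1624 CPM in synaptosomes, against 1262, 1269, 834 and 851 CPM in input, a log2 fold change of 1.15 ± 0.34 (adjusted p = 0.0863, edgeR). DESeq2 and the fits without synaptosome library old called it (adjusted p between 0.00997 and 0.291 over 17 alternatives). VhaAC45RP (3R 30164692 to 30166419), its relative, had 70.6 to 114 CPM in synaptosomes and 157 to 294 CPM in input, and changed by −1.41 ± 0.38 (adjusted p = 0.0542). It was called with DESeq2, with library totals alone and without synaptosome library old.

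VhaAC45 held 95.6, 96.7, 97.5 and 95.1% of the counts of the pair in synaptosomes, against 81.9, 89.0, 79.8 and 74.3% in input. As for subunit e, the libraries of the groups were apart (exact permutation p = 0.0286, adjusted p = 0.0714). ATP6AP2, the prorenin receptor homolog that encodes another accessory protein of V0 and does not carry a Vha symbol, had 224, 318, 234 and 292 CPM in synaptosomes, against 174, 187, 178 and 182 CPM in input. Its synaptosome libraries were higher throughout, and the log2 fold change was 0.57 ± 0.33 (adjusted p = 0.523).

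Then broadly used paralogs were set against the rest. The classes came from background knowledge of where each gene is used, and earlier results of these data were known when they were set. Of the tested members, 14 were taken as broad, 2 as tissue-restricted (Vha100-1 and, with less certainty, Vha36-3) and 4 were not assigned (Vha68-1, VhaM9.7-a, VhaM9.7-c and VhaAC45RP). Broad members took 92.8, 92.9, 93.4 and 93.7% of all Vha counts in synaptosomes, against 84.8, 87.9, 85.3 and 84.1% in input. The groups were apart and the synaptosome libraries nearly equal. VhaAC45 and VhaM9.7-b alone took 36.5 ± 6.07% of Vha counts in synaptosomes and 19.4 ± 3.42% in input. Without these 2 genes, broad members still took 89.2 ± 1.34% in synaptosomes and 82.1 ± 1.54% in input.

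By gene, the median log2 fold change was 0.22 for the 14 broad members (range −1.85 to 2.01, 6 of them negative). It was −0.57 for the 4 unassigned members (range −1.41 to 0.82, 3 of them negative), so the ranges overlapped. The 2 restricted genes lay far apart, at −1.26 for Vha100-1 and 1.59 for Vha36-3. Restricted members took 1.78 ± 0.711% of Vha counts in synaptosomes and 3.41 ± 0.520% in input, with synaptosome library 2 (2.67%) just below input library 2 (2.75%). The unassigned members took 5.04 ± 0.478% in synaptosomes and 11.1 ± 1.31% in input. More of the change in the broad share thus lay with the unassigned than with the restricted members. These sums carry no test.

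The 3′ ends of member transcripts were compared next, since each gene can end at several sites. The end count table held 96 ends of the 24 members, numbered within a gene and without coordinates, and 86 of them had counts. Of these, 28 (32.6%) had counts in input only and 1 in synaptosomes only, and of all 18608 ends with counts 30.9% had counts in input only. Of 53 tested ends of members, 2 were higher and 3 lower in synaptosomes (edgeR, adjusted p under 0.05), against 0.732% higher and 6.46% lower among 11062 tested ends.

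Both higher ends belonged to VhaM9.7-b. Its end 1 had 466, 581, 419 and 262 CPM in synaptosomes, against 87.1, 71.2, 90.6 and 88.8 CPM in input (log2 fold change 2.35 ± 0.39, adjusted p = 0.0224). Its end 6 had 616, 463, 409.9 and 274 CPM in synaptosomes, against 141, 143, 155 and 159 CPM in input (1.56 ± 0.37, adjusted p = 0.0390). Both ends were apart between the groups in every library. The rarer end 9 went the other way, with 2.45, 0, 2.64 and 0 CPM in synaptosomes against 7.91, 10.8, 7.64 and 1.91 CPM in input (−2.46 ± 1.62, adjusted p = 0.598). End 1 made up 49.5 ± 5.22% of the gene's counts in synaptosomes and 35.0 ± 2.30% in input, and end 6 made up 50.4 ± 5.15% in synaptosomes and 62.0 ± 1.95% in input. The end calls also depended on the libraries kept, as end 1 was called in 2 and end 6 in 1 of the 8 fits that leave out a library.

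**Figure D5:**
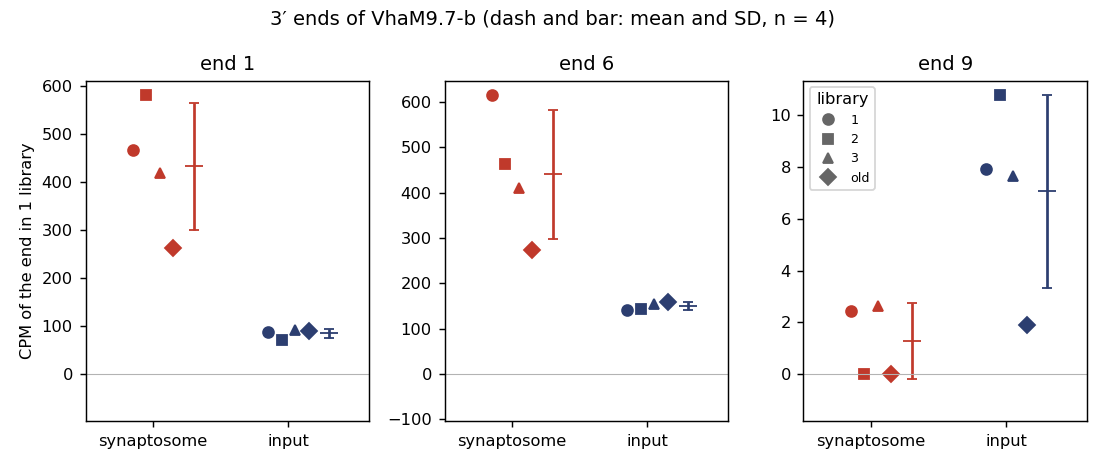
CPM of the 3 ends of VhaM9.7-b in each library, synaptosomes in red on the left and input in blue on the right of each panel, with the mean and SD of 4 libraries beside the points and a scale of its own for each end. All synaptosome libraries lie above all input libraries for ends 1 and 6, and end 9 stays at or below 10.8 CPM.

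The 3 lower ends had no count in any synaptosome library. End 4 of VhaSFD had 22.2, 23.6, 18.0 and 17.4 CPM in input, and set against a floor of 3 counts per synaptosome library, which averaged 1.36 CPM, it was at least 14.9-fold lower. End 16 of Vha26 had 6.26, 7.49, 13.3 and 9.40 CPM in input, which made it at least 6.68-fold lower. End 2 of Vha44 had 10.7, 3.97, 1.45 and 5.12 CPM in input, which made it at least 3.90-fold lower. Their adjusted p-values were 0.0390, 0.0390 and 0.0399 (edgeR). Each was called in only 1 of the 8 fits that leave out a library, the one without synaptosome library old. These ends passed the filter on low counts only through input, and 563 of all tested ends had no synaptosome count.

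As ends can move because their gene does, the usage of each end was also tested against the other ends of its gene. None of 48 ends of 15 members was called (edgeR's diffSpliceDGE), and the background was 0% of 5240 ends. At an unadjusted p under 0.05 there were 4 ends of members and 384 in all. The smallest adjusted p among members was 0.114, for end 4 of VhaSFD, and the smallest of all was 0.0635. Without synaptosome library old, 2 ends of members were called, end 9 of Vha55 and end 5 of Vha68-1, of 15 called among 6037 ends. Both had synaptosome counts in that library only, so the fit without it had input counts alone for them.

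Of the 17 members with several ends in use, 11 had the same largest end in every library with counts. Of the rest, which were picked out after their values were seen, Vha55 had one largest end in all synaptosome libraries and another in all input libraries. Of the counts of Vha55, end 6 held 48.4, 80.2, 55.1 and 79.2% in synaptosomes, against 39.4, 34.7, 34.5 and 35.7% in input. End 11 held 27.5, 16.8, 31.7 and 8.51% in synaptosomes, against 44.3, 37.1, 50.9 and 51.0% in input. The shares were apart in every library, although the usage test gave an adjusted p of 1 for both. How many of all ends had shares apart in this way is not given here, so the separation cannot be weighed against a background. For Vha26, end 13 was largest in all input libraries, while in synaptosomes end 19 led in libraries 1 and 3, end 6 in library 2 and end 13 in library old, on 65 to 300 counts each. The largest end also varied within a group for Vha44, VhaSFD, VhaM9.7-b and VhaAC45RP.

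In the most abundant members a single end led. End 6 of VhaAC45 held 95.6 ± 2.15% of its counts in synaptosomes and 92.6 ± 1.69% in input, and end 23 of Vha16-1 held 97.5 ± 2.48% in synaptosomes and 97.0 ± 1.47% in input. In Vha13, end 2 held 81.9 ± 5.75% in synaptosomes and 63.7 ± 2.07% in input, and end 1 held 13.03 ± 5.41% in synaptosomes and 29.5 ± 2.48% in input. The libraries of the groups were apart for both ends of Vha13, with no call in usage (adjusted p = 1 for end 2 and 0.853 for end 1). As for Vha55, no share over all ends is given beside this.

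Finally, genes that work with the pump were examined. Of 4 tested genes taken as RAVE, which loads V1 onto V0, or as other factors of pump assembly, none passed, with a median of −0.16. The highest was CG5969 (0.16 ± 1.51), and the lowest was mtd, with 22.2, 30.7, 69.2 and 59.5 CPM in synaptosomes against 154, 173, 135 and 41.4 CPM in input (−1.47 ± 0.56, adjusted p = 0.215). The vesicular transmitter transporters use the proton gradient to fill vesicles. None of 5 passed, and their median was −0.41. They lay between −2.07 ± 1.51 for prt and 0.37 ± 1.29 for VAChT, which carries acetylcholine. Their means were at most 50.9 CPM in synaptosomes and 60.7 CPM in input. The medians of all tested genes were 20.02 CPM in synaptosomes and 25.8 CPM in input.

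The mitochondrial ATP synthase is the rotary relative of the pump that runs in the direction of ATP synthesis. None of its 14 tested genes passed, and their median was −0.49. Of these genes, 4 had every synaptosome library below every input library, against 14.5% of all tested genes. None had every one above, against 2.99%. The lowest was ATPsyndelta, with 85.6, 114, 24.0 and 140.1 CPM in synaptosomes against 287, 214, 316 and 933 CPM in input (−2.26 ± 0.62, adjusted p = 0.0571). The highest was ATPsynepsilonL (2.25 ± 1.68, adjusted p = 0.653), with 0 to 8.16 CPM in synaptosomes and 0 to 1.73 CPM in input. By edgeR, none of these lists had a call in either direction.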

How the data were processed

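Libraries of 3′ ends (QuantSeq REV) held RNA of synaptosomes and input from fly heads, 4 per group. Per the study's methods and the labels, fastp trimming, STAR 2.6.1b alignment (dm6) and masking of internal priming came first, and the authors kept 3′ ends known from long reads or Ensembl. They deposited raw counts per gene and per 3′ end, made without molecular identifiers, so floors cover counting error only. How reads shared by paralogs were placed was not given in the sources used here. The deposited DESeq tables hold the authors' own comparison and were not used.

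Groups came from the titles. The columns named old match a group but no sample number. p-values measure the spread between these libraries, which may be technical. The count tests used edgeR 4.0.16 under R 4.3.3 (filterByExpr, TMM, robust quasi-likelihood, Benjamini-Hochberg over all features), after tests on simulated data. Standard errors are the log2 fold change over the square root of F. DESeq2 1.42.0, other scalings and filters, a batch term, thinning and left-out libraries were alternatives. Coordinates came from an Ensembl annotation of release 6 (dm6), 1-based. The table's identifier for Vha44 is an older one. Members, lists and classes were chosen with earlier results of these data known. Every member was to be accounted for, with all libraries for called members, the main gene of each subunit and the a, c and e genes, and in each list the called, highest and lowest genes.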

Additional observations from a re-analysis of the deposited data

Results flagged for a closer look

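Of 54 sets of 4 library values of members, 3 held a library far from the others by Dixon's ratio, where chance gives about 5%. Vha44 had 145 CPM in synaptosome library old, against 306 to 319.7 CPM in the other synaptosome libraries (ratio 0.921). Vha14-1 had 842 CPM in synaptosome library 1, against 519.5 to 557 CPM in the others (ratio 0.883). VhaPPA1-1 had 91.9 CPM in synaptosome library 1, against 753 to 876 CPM in the others (ratio 0.843).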

How the results depend on the processing

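VhaM9.7-b kept its direction under all 17 alternatives (log2 fold change 1.89 to 2.22, and 1.89 to 2.19 with 1 library left out) and was called in 10. Of the others, no member changed sign except Vha44 (0.01 with median-of-ratios factors, with genes of mean count 100 or more and with DESeq2, and −0.30 to 0.11 with 1 library left out), Vha16-1 (−0.07 to 0.34 with 1 library left out) and VhaM9.7-c (−0.16 to 1.29 with 1 library left out and −0.11 with the replicate block), none of them called. The number of members called higher was 3 with DESeq2 and 3 without both libraries named old, and 0 to 3 with 1 library left out. The number called lower was 1 with library totals alone, 1 with DESeq2 and 0 to 1 with 1 library left out. Of member ends, 4 were higher and 6 lower without both libraries named old, 0 to 4 were higher and 0 to 8 lower with 1 library left out, and 0 to 2 changed in usage. Over all ends, calls numbered 145 higher and 1575 lower of 10826 without both libraries named old, and 168 higher and 1956 lower of 11927 without synaptosome library old, the fit with 4 and 8 member ends. The cause was not tested. Over all genes, 77 higher and 337 lower calls became 50 and 50 without a filter, 64 and 60 at a mean count of 100 or more, 226 and 425 with DESeq2, 139 and 495 without both libraries named old, 45 and 50 with a batch term, 51 and 66 with the replicate block, and 57 and 53 after thinning. The deviations of same-named libraries across genes correlated at r = 0.003, 0.039 and −0.018 for libraries 1, 2 and 3. For the libraries named old, r was 0.25, the highest of all 16 combinations. Values near 0 cannot tell whether same-numbered libraries came from the same preparation, as noise in shallow libraries can also give them. Per the study's methods, input was taken from the homogenate that went on to the gradient. With the replicate block, VhaM9.7-b had 1.96 and stayed the only called member, and 1 member end was higher (end 1 of VhaM9.7-b) and 3 were lower. Of these, end 4 of VhaSFD was also called without the block, and end 4 of VhaAC45RP and end 13 of Vha26 were not. The block ended the calls of end 6 of VhaM9.7-b (adjusted p = 0.0573), end 16 of Vha26 and end 2 of Vha44 (both 0.0716). Over all ends the block gave 80 higher and 298 lower calls, against 81 and 715 without it. Depth limits the synaptosome libraries 2 and 3, where 3 counts are worth over 2 CPM.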
